A study of Homo sapiens and Homo sapiens
Mus musculus and Mus musculus with 200 samples.

Results

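AP2a, the product of TFAP2A, was mapped in human cranial neural crest cells with 2 antibodies, and the sites that both antibodies found were set against the sites of TWIST1 in the same cell type. An AP2a site was a peak of the Novus Bio list that at least 1 bp of a Cell Signaling peak overlapped. This gave 17594 AP2a sites from 21519 Novus Bio peaks and 24454 Cell Signaling peaks, against 58395 TWIST1 peaks from the Abcam antibody. These 3 lists hold 104368 of the peaks of a series that has 200 samples and 70 peak lists.

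The series used chromatin immunoprecipitation followed by sequencing (ChIP-seq), in which fragments bound by a protein are enriched and piles of reads mark its sites. The AP2a and TWIST1 libraries came from unedited (WT) neural crest cells differentiated from H9, a human embryonic stem cell line, with no drug treatment given in the labels, and each is 1 library without a replicate. Other lists used here are TWIST1 in WT cells at 0 h and in the edited line TWIST1FV at 0 h and 3 h of dTAGV-1 (500 nM), a degrader of tagged proteins. Further lists are V5-tagged ALX1 in the lines ALX1FV (1 clone) and ALX1FV ALX4- (2 clones) at 0 h, TWIST1 in ALX1FV ALX4- at 0 h, and TWIST1 in untreated WT RS4;11, a human lymphoblast line. H3K27 acetylation (H3K27ac), a mark of active promoters and enhancers, was counted over 213151 open-chromatin (ATAC-seq) elements in TWIST1FV and in WT at 0, 3 and 24 h, with 2 libraries a time. All TWIST1FV libraries are of 1 clone, so their spread does not cover differences between clones, and nothing in the labels says whether replicates were separate differentiations.

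AP2 proteins bind GC-rich palindromes as dimers and take part in the specification of both neural crest and surface ectoderm. TWIST1 is a basic helix-loop-helix protein that binds E-boxes with a partner and is known for its part in the mesenchymal state of the cranial neural crest. Promoter sites lie at gene starts, while distal sites include enhancers, which act on genes over a distance.

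The following sequences are examples picked for the motif of their class, so its presence in them is not a result. They were drawn from the 5 strongest sites of each class and place by the fold enrichment of the authors' peak caller, distal sites first. They are read on the plus strand of hg38. The AP2 motif was GCCNNNGGC, which reads the same on both strands. The distal sites with both factors near ERI3, FGF1, CDK5RAP3 and NCR2 were passed over, as none held it within 100 bp of the AP2a summit. E-boxes were searched on both strands as the hexamer CAGATG (with its reverse complement), and as the palindrome CATATG and the palindrome CAGCTG. Capitals mark matches to either motif. All lie in introns of the GENCODE 44 annotation, and distances run from the peak summit to the nearest protein-coding start.
AP2a with TWIST1, distal, intronic, 80238 bp upstream of the NKD1 start, chr16:50467985-50468115: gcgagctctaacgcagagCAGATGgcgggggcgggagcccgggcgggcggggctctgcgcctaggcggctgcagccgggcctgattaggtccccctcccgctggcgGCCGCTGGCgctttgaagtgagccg
AP2a with TWIST1, promoter, intronic, 946 bp downstream of the ARID3A start, chr19:933417-933546: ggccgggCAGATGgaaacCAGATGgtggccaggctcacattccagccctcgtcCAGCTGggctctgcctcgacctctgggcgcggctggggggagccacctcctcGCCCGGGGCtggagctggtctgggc
AP2a without TWIST1, distal, intronic, 10277 bp upstream of the GRAMD1B start, chr11:123580704-123580764: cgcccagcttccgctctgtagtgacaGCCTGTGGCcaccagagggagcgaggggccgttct
AP2a without TWIST1, distal, intronic, 1297 bp downstream of the MKX start, chr10:27742231-27742291: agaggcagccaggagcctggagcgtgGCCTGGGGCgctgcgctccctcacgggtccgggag
TWIST1 without AP2a, distal, intronic, 17342 bp downstream of the RNF175 start, chr4:153731375-153731435: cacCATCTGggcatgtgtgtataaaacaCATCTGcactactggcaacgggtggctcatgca
TWIST1 without AP2a, distal, intronic, 2749 bp upstream of the SART3 start, chr12:108540860-108540920: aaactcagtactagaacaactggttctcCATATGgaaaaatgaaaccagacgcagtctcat

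In the stretch near NKD1, which encodes an inhibitor of WNT signalling, the centres of the E-box and the AP2 motif lay 89.5 bp apart. The AP2a enrichment there was 52.9-fold and the TWIST1 enrichment 243-fold, and the summits of the factors stood 115 bp apart. At ARID3A, which encodes a DNA-binding protein, the nearest E-box to the TWIST1 summit and the AP2 motif were 88.5 bp apart, and the AP2a enrichment of 92.7-fold was the highest of all AP2a sites. The summits were 66 bp apart, and the TWIST1 enrichment was 128-fold. The sites at GRAMD1B (34.1-fold) and MKX (33.1-fold), the latter a homeobox gene of tendon development, held the AP2 motif and no E-box in the stretch printed. The TWIST1 peaks at RNF175 (236-fold) and SART3 (203-fold) held E-boxes and no AP2 motif there. Each such enrichment is the authors' own value for a peak and is compared only within its list. The stretches printed for sites of a single factor are 61 bp long, against 131 bp at NKD1 and 130 bp at ARID3A. A missing motif is thus read over less sequence there.

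AP2a lay mainly at gene starts and TWIST1 mainly away from them. A promoter site was one with its summit within 1 kb of an annotated start of any gene, and the rest are called distal. Of the AP2a sites 58.3% were promoter sites (95% Wilson interval 57.6 to 59.1%), against 17.4% of TWIST1 peaks (17.1 to 17.7%). Each antibody alone gave the same picture, with 54.1% for Novus Bio and 51.5% for Cell Signaling. The TWIST1 share was 18.1% and 17.9% in the WT 0 h lists, and 18.4% of all ATAC-seq elements were promoter elements, so the TWIST1 share was near that of open chromatin and the AP2a share was 41.0 percentage points above that of TWIST1. Distal AP2a sites also lay nearer to genes, at a median of 9.10 kb from the nearest annotated start against 15.2 kb for distal TWIST1 peaks. With 1 library a factor there is no test of these differences, and the intervals throughout cover counting error only.

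**Figure D1:**
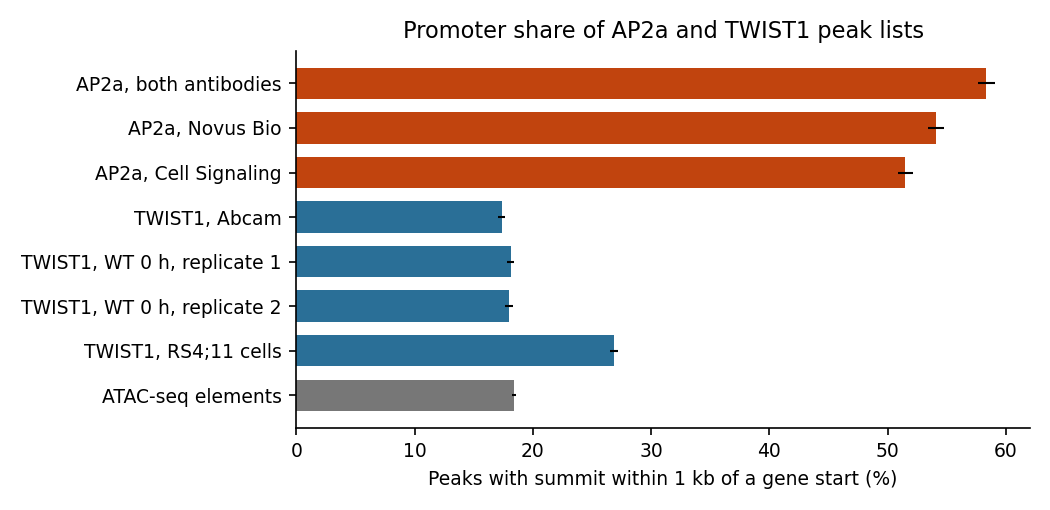
Share of peaks (horizontal axis, percent) with the summit (for ATAC-seq elements the centre) within 1 kb of a gene start, for each list named on the vertical axis. Bars start at 0 and black lines are 95% Wilson intervals. The 3 AP2a bars lie between 51.5 and 58.3%, above every TWIST1 bar.

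The antibodies gave closely similar AP2a maps. Of Novus Bio peaks 81.8% were overlapped by a Cell Signaling peak, and of Cell Signaling peaks 71.8% by a Novus Bio peak. Peaks found by Novus Bio alone were weaker, with a median enrichment of 4.30-fold against 7.17-fold for peaks found by both, and 35.2% of them were promoter peaks. Over the 17594 sites Spearman's rho between the enrichments of the antibodies was 0.816, as a description of sites that share 1 cell type and not as a test.

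TWIST1 was present at most distal AP2a sites and at fewer of the promoter sites. A TWIST1 peak overlapped 9589 of 17594 AP2a sites, which is 54.5% (53.8 to 55.2%). The share was 68.5% of 7329 distal sites (67.5 to 69.6%) and 44.5% of 10265 promoter sites (43.5 to 45.4%). For comparison, TWIST1 overlapped 24.1% of all distal and 26.1% of all promoter ATAC-seq elements, and 96.2% of AP2a sites overlapped such an element. Seen from the longer TWIST1 list, 16.8% of peaks were overlapped by an AP2a site (16.5 to 17.1%), namely 46.7% of promoter peaks and 10.52% of distal peaks. The class without TWIST1 rests on that 1 list: the WT 0 h lists had a TWIST1 peak at 19.6% and 14.1% of the 8005 AP2a sites placed in it. Of the 48588 TWIST1 peaks without an AP2a site, 3691 met a peak of a single AP2a antibody. With summits within 100 bp required in place of an overlap, 25.9% of AP2a sites and 7.79% of TWIST1 peaks were shared.

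Where AP2a was stronger, TWIST1 was more often there. Over deciles of AP2a enrichment, the share of distal sites overlapped by TWIST1 went from 48.2% in the weakest to 87.8% in the strongest decile. At promoter sites it went from 29.9% to 68.5%. Stronger sites were also wider (median 382 bp in the weakest and 751 bp in the strongest distal decile), and the part of width in the overlap was not tested. The share with summits within 100 bp went from 21.7% to 57.0% over the same distal deciles. The median AP2a enrichment was 7.53-fold at distal sites with TWIST1 and 5.82-fold at distal sites without it, and 8.73-fold and 6.69-fold at promoters. The Cell Signaling list gave the same order, at 8.21-fold and 6.17-fold for distal and 9.62-fold and 7.16-fold for promoter sites.

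For TWIST1 the relation to AP2a split by place. Distal TWIST1 peaks with AP2a had a median enrichment of 22-fold, and those without it 8.50-fold. In deciles 1 to 5, AP2a overlapped between 4.68% and 6.65% of distal TWIST1 peaks, and 35.6% in the strongest decile. Stronger distal peaks were wider here too, with medians of 313 bp in the weakest and 914 bp in the strongest decile. The part of width was not tested. With summits within 100 bp the shares in these deciles were 2.82% and 22.1%. At promoters the order was the other way round: peaks with AP2a had a median of 5.76-fold and peaks without it 6.69-fold. The promoter share with AP2a fell from 54.7% in the weakest TWIST1 decile to 37.6% in decile 9 and was 48.5% in the strongest. Among sites that both factors held, the enrichments ran together only loosely, with a Spearman's rho of 0.238 over 5023 distal sites and 0.107 over 4566 promoter sites.

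**Figure D2:**
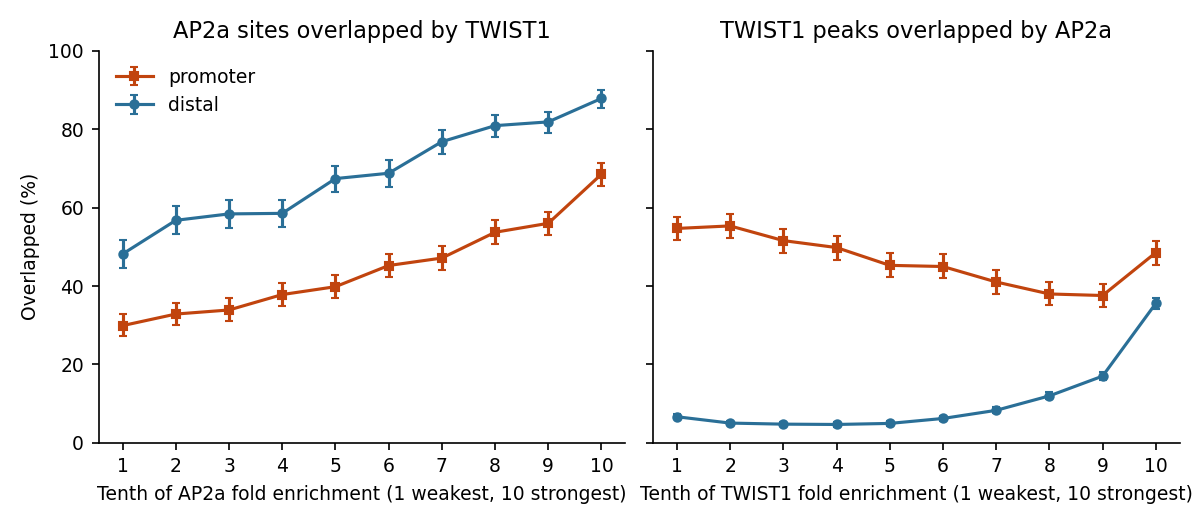
Share of AP2a sites overlapped by TWIST1 (left, percent) and of TWIST1 peaks overlapped by AP2a (right, percent) in deciles of the fold enrichment of each list, 1 the weakest and 10 the strongest. Points are shares of promoter or distal sites and bars are 95% Wilson intervals. AP2a sites go up in both places, to 87.8 and 68.5%, and distal TWIST1 peaks from decile 5 on, to 35.6%, while promoter TWIST1 peaks go from 54.7% to 48.5%.

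At sites they shared, the factors did not peak at the same base. The AP2a and TWIST1 summits were a median of 81 bp apart at distal sites (quartiles 37 and 188 bp) and 169 bp at promoter sites (66 and 395.75 bp). The resolution of the lists is finer than that. The AP2a antibodies put their summits a median of 24 bp apart at the same distal sites and 32 bp at the promoters. The TWIST1 Abcam summits lay a median of 14 bp and 16 bp from those of the WT 0 h lists at distal peaks with AP2a, and 35 bp and 36 bp at promoters. The distal median stayed between 73 and 93.5 bp in each quartile of TWIST1 enrichment, and the promoter median between 159 and 181 bp. Of distal pairs 33.2% were within 50 bp and 15.3% over 300 bp apart.

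**Figure D3:**
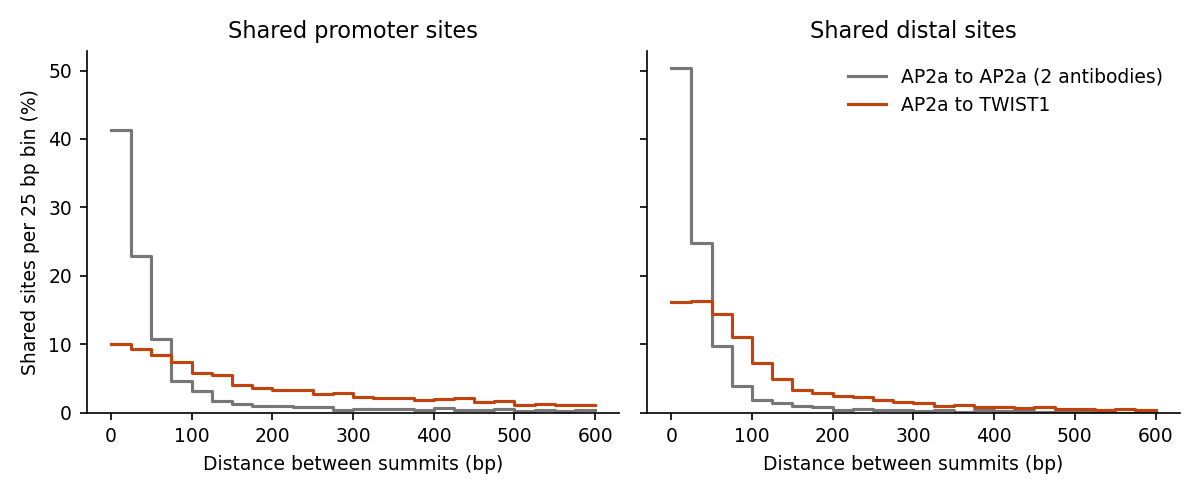
Distance between summits (bp, horizontal axis) at promoter (left) and distal (right) AP2a sites with TWIST1, as the percentage of sites in each 25 bp bin. Grey is the distance between the AP2a antibodies and red the distance from AP2a to TWIST1; the distal medians are 24 and 81 bp.

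The motifs followed the summits. Within 100 bp of the summit, GCCNNNGGC was found at 35.0% of distal and 47.1% of promoter AP2a sites without TWIST1, and at 29.0% and 45.1% of those with TWIST1. In the flanks 1000 bp away the distal shares were 9.56% and 6.54%. Windows of the same length at the centres of all ATAC-seq elements held it in 10.9% of distal and 20.6% of promoter elements. TWIST1 peaks without AP2a held it in 5.56% of distal and 9.86% of promoter windows. GC content differs between these sets, from a median of 61.2% around distal AP2a sites without TWIST1 to 42.8% around distal TWIST1 peaks without AP2a, and its part in the motif shares was not tested.

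E-boxes divided the AP2a sites by TWIST1. At distal AP2a summits an E-box was found in 51.2% of windows where TWIST1 was present and 25.9% where it was not, with 26.5% and 27% in their flanks. At promoters the shares were 27.6% and 13.5%, with 21.1% and 21.8% in their flanks, so promoter sites without TWIST1 lay below their flanks. Median GC content with and without TWIST1 was 53.2% and 61.2% at distal sites and 70.1% and 71.1% at promoters. Its part in the E-box shares was not tested. Around TWIST1 summits the E-box share was 67.3% at distal peaks with AP2a and 69.0% at those without it, against 43.8% of distal ATAC-seq elements. An E-box 4 bp from a homeodomain motif (TAATTA, or the asymmetric TAATTG on either strand) was found at 3.06% of distal TWIST1 peaks without AP2a, 1.62% of those with AP2a and 0.0556% of the flanks of the former. Around the 2306 summits of distal AP2a sites without TWIST1 there was none, which allows a share of up to 0.130%.

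At the 5023 shared distal sites, each motif sat nearer to the summit of its own factor. GCCNNNGGC was within 50 bp of the AP2a summit at 22% of sites and within 50 bp of the TWIST1 summit at 12.2%. An E-box was within 50 bp of the TWIST1 summit at 54.8% and of the AP2a summit at 31.7%. Where the summits were over 100 bp apart (2093 sites), the AP2 motif shares were 23.6% at the AP2a summit and 6.26% at the TWIST1 summit, and the E-box shares 54.9% at the TWIST1 summit and 18.7% at the AP2a summit. At 613 shared distal sites each summit had its own motif within 50 bp, and those motifs were a median of 93.5 bp apart (quartiles 43.5 and 225.5 bp). The most frequent gap between an AP2 motif and an E-box, 4 bp, was found at 28 of the 5023 sites, the next, 17 bp, at 21, and the median over gaps of up to 60 bp was 11 sites.

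**Figure D4:**
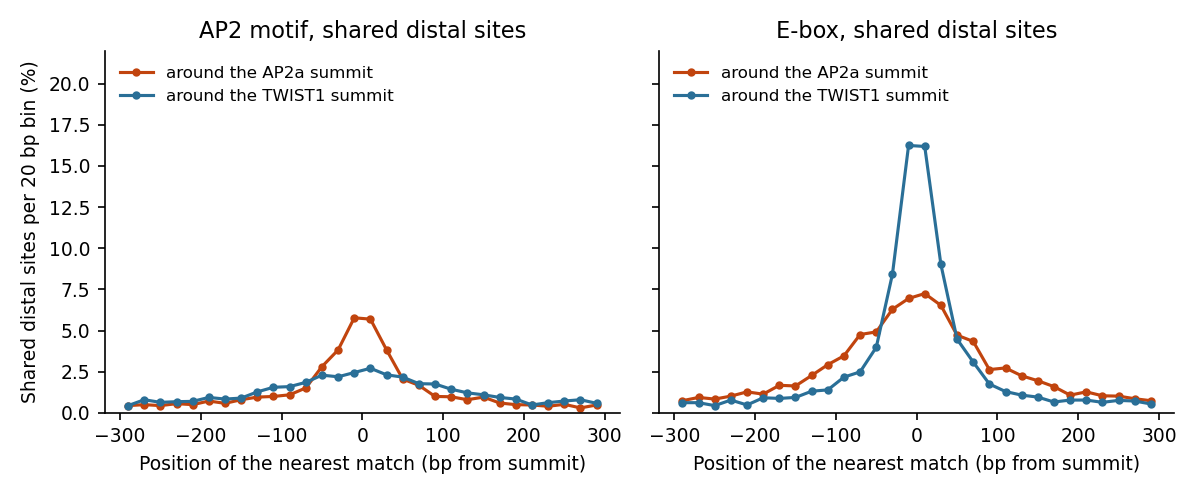
Position of the nearest AP2 motif (left) and E-box (right) around the AP2a summit (red) and the TWIST1 summit (blue) at the 5023 distal AP2a sites with TWIST1, in bp from the summit, as the percentage of sites in each 20 bp bin. The AP2 motif piles up at the AP2a summit and the E-box at the TWIST1 summit.

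Genes of neural crest identity and of signalling had many shared distal sites nearby, and many distal TWIST1 peaks without AP2a as well. Each distal site was given to the nearest protein-coding start, which favours genes that stand in long stretches without other genes, and a nearest gene need not be the gene a site acts on. Over 20007 protein-coding genes, 14.9% were nearest to at least 1 distal AP2a site with TWIST1, 9.01% to a distal AP2a site without TWIST1 and 45.9% to a distal TWIST1 peak without AP2a. Of 24 neural crest specification factors, 17 were nearest to a shared distal site (82 sites in all), 10 to a distal AP2a site without TWIST1 and 21 to a distal TWIST1 peak without AP2a. ETS1, a transcription factor of the crest, had 11 shared sites, NR2F2, a nuclear receptor, had 9, SOX9, a regulator of crest and cartilage, had 8, MYCN had 8 and PAX7 had 7. TFAP2A itself had 2 shared distal sites, 1 AP2a site without TWIST1 and 34 TWIST1 peaks without AP2a.

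The signalling list, 35 genes mainly of the BMP, WNT, FGF and retinoid pathways, had 25 genes nearest to a shared distal site and 11 nearest to a distal AP2a site without TWIST1. BMP7, a BMP ligand, had 14 shared sites, FGF18, a ligand, had 8, and TCF7L2, a transcription factor of WNT signalling, had 6. Among 28 factors of the facial mesenchyme, 16 had a shared distal site, led by ALX4 with 9, and TWIST1 itself had none. Of 20 genes of the epithelial-mesenchymal transition and adhesion, 12 had one, with CDH11, a mesenchymal cadherin, at 11. That list had 1 gene, SNAI1, nearest to a distal AP2a site without TWIST1. Of 20 epithelial genes, 2 had a shared distal site, GRHL2 with 1 and GRHL3 with 3. Of 22 collagen and matrix genes 12 had one, of 18 melanocyte and Schwann cell genes 8, of 16 neuronal genes 6, of 24 ribosomal protein genes 4 and of the 5 TFAP2 genes 3. In each of these lists more genes were nearest to a distal TWIST1 peak without AP2a, against 45.9% of all protein-coding genes. These were 34 signalling, 25 facial mesenchyme, 18 transition and adhesion, 10 epithelial and 21 collagen and matrix genes. For the melanocyte and Schwann cell, neuronal, ribosomal protein and TFAP2 genes the counts were 12, 13, 5 and 5.

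Over all genes, GSE1 with 24 and BCOR with 20 had the most shared distal sites, followed by BMP7 and ZMIZ1 with 14 each, AHDC1 and MN1 with 12 each, and CDH11, ETS1, FOXD2 and GLI2 with 11 each, at which further genes were tied. GSE1 and BCOR, whose products are corepressor subunits, also headed the AP2a sites without TWIST1, with 8 and 11. The genes nearest to the most distal TWIST1 peaks without AP2a were AUTS2 and EFNA5 with 76 each and ROBO1, an axon guidance receptor, with 75. These had 3, 3 and 8 shared sites, and CDH11, with 60 such peaks, was among the first 10 genes of both classes.

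At gene starts the pattern was another. An AP2a site lay within 1 kb of a start of 45.4% of protein-coding genes, a TWIST1 peak at 35.2%, and AP2a with no TWIST1 peak at 20.1%. Of the neural crest specification factors 18 of 24 had AP2a at a start and 16 had TWIST1. Of the signalling genes 27 of 35 had AP2a and 24 TWIST1, and of the transition and adhesion genes 18 of 20 had each. Of the epithelial genes 7 of 20 had AP2a at a start, among them KRT8 and KRT18, keratins of simple epithelia, and 1 had TWIST1, CDH1. All 7 had AP2a without TWIST1. Of 24 ribosomal protein genes 12 had each factor.

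Among the strongest promoter sites with both factors were those of IGF2BP1 (67.5-fold in AP2a, 8.66-fold in TWIST1), which encodes an RNA-binding protein, SPHK1 (57.7 and 15.9-fold), a sphingosine kinase, and GPR137 (55.6 and 9.46-fold). Among distal sites the strongest were in an intron 8337 bp downstream of the ERI3 start (64.9-fold in AP2a, 101-fold in TWIST1), in an intron near FGF1, a growth factor gene (58.3 and 8.22-fold), near CDK5RAP3 (53.2 and 103-fold) and near NCR2 (52.1 and 56.5-fold). Without TWIST1 the strongest promoter sites were that of JMJD4 (52.8-fold in AP2a), a site of 51.8-fold at a start of a gene without a symbol, 9994 bp upstream of PHF2, and those of GSR (48.2-fold), NCOA2 (46.9-fold) and NDUFA10 (44.1-fold). The strongest TWIST1 promoter peak without AP2a, of 189-fold, lay at a noncoding start 9464 bp upstream of SOX9.

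Distal TWIST1 peaks with AP2a, which were also the stronger ones, were found again in other TWIST1 lists of the crest more often than those without it. Of distal TWIST1 peaks with AP2a 91.5% ± 1.24 (SD, n = 2 lists) were in the WT 0 h lists, against 72.7% ± 5.68 of those without AP2a. At promoters the shares were 73.5% ± 4.32 and 69.4% ± 6.15. At like enrichment the distal shares lay close together only in the strong deciles, where both neared 100%. In decile 8 of TWIST1 enrichment they were 99.9% ± 0.122 with AP2a and 97.3% ± 0.899 without it. In decile 10 they were 100% ± 0 and 99.95% ± 0.0227. They stood further apart in decile 5, at 84.1% ± 3.55 and 72.0% ± 8.13, and in decile 1, at 49.5% ± 3.97 and 36.4% ± 8.38. In RS4;11 lymphoblasts, in 1 library, crest TWIST1 peaks with AP2a were also found more often than those without it. The shares were 27.8% and 11.3% for distal peaks and 78.5% and 40.6% for promoter peaks. Promoter shares were thus the higher ones there, unlike in the WT 0 h lists. The RS4;11 TWIST1 list covered 74.1% of promoter AP2a sites of the crest (73.3 to 74.95%) and 27% of distal ones (26 to 28.03%), against 45.6% and 11.8% of all promoter and distal ATAC-seq elements of the crest. It covered 58.1% of the AP2a sites that had no peak in the crest Abcam list. The RS4;11 list is longer, at 70826 peaks against 58395, and its promoter share overall was 26.9%.

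After 3 h of dTAGV-1 in TWIST1FV most of the few remaining TWIST1 peaks lay at AP2a sites. In TWIST1FV the lists had 33479 and 25034 peaks at 0 h and 835 and 739 at 3 h of dTAGV-1. In the same order, AP2a sites overlapped 21.0% and 23.5% of these peaks before treatment, and 63.8% and 64.0% of those left after it. The groups did not overlap, but with 2 lists against 2 an exact two-sided permutation test cannot go below its value here, p = 0.333 (0.333 after Benjamini-Hochberg adjustment over 6 such tests). Of the distal Abcam peaks with AP2a 82.5% ± 4.18 were found at 0 h and 8.21% ± 0.627 at 3 h (SD, n = 2 lists). For distal peaks without AP2a these were 42.9% ± 7.79 and 0.538% ± 0.0278. Enrichment differed between these classes too. In the strongest decile of distal TWIST1 peaks 22.4% ± 1.65 of 1716 with AP2a and 6.75% ± 0.182 of 3109 without were found at 3 h, at median enrichments of 61.3 and 52.5-fold. In decile 9, at 28.7 and 27.8-fold, the shares were 3.47% ± 0.431 and 0.450% ± 0.177.

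The V5 lists of ALX1, a homeodomain factor of the face, also overlapped AP2a sites more often than the 0 h TWIST1 lists set beside them. AP2a overlapped 43.4% and 51.5% of distal V5 peaks in ALX1FV, against 10.4% and 12.0% of distal TWIST1 peaks in WT at 0 h. In ALX1FV ALX4- it overlapped 51.2% ± 2.27 of distal V5 peaks and 13.3% ± 1.32 of distal TWIST1 peaks (SD, n = 2 lists, from separate clones). Both differences had the smallest exact permutation p that this design can give, 0.333. The V5 lists are short, with 1389 and 376 peaks in ALX1FV, and the part of list length in the difference was not tested.

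H3K27ac was highest at elements that held both factors. For this, each ATAC-seq element was classed by overlap with the AP2a sites and the TWIST1 Abcam peaks. Levels are medians over elements that passed the filter on low counts, for distal elements in WT 5240 of 5322 with both factors, 1684 of 2193 with AP2a only and 54188 of 129901 with neither. In WT at 0 h the median level of distal elements was 3.97 and 3.94 log2 CPM (counts scaled to library size) in the replicates where both factors lay, 1.72 and 1.76 with AP2a only, 1.82 and 1.89 with TWIST1 only and 0.67 and 0.69 with neither. At promoters it was 4.60 and 4.58 with both, 3.68 and 3.66 with AP2a only, and 2.94 and 2.92 with TWIST1 only. These levels are per element, and the median widths of those promoter classes were 876, 814 and 501 bp. Per kb of element the promoter medians were 4.78 and 4.76, 4.06 and 4.03, and 3.57 and 3.53 log2 CPM. The labelled cell type was checked at the start sites of marker genes in the same libraries: summed H3K27ac at 15 crest markers was 1254 and 1300 CPM, at 5 neuroectoderm markers 7.79 and 6.10 CPM and at 8 markers of surface ectoderm and epithelium 7.54 and 10.7 CPM. The crest markers SOX10, DLX1 and DLX2 were under 5 CPM in both replicates. Pluripotency markers summed to 312 and 307 CPM, of which LIN28A gave 255 and 256, while POU5F1 and NANOG had no element at a start.

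The median H3K27ac went down at distal AP2a elements with TWIST1 after dTAGV-1, and up both at those without it and at distal elements with neither factor. In TWIST1FV the median distal level with both factors was 4.21 and 4.10 log2 CPM at 0 h, 3.83 and 3.56 at 3 h and 3.54 and 3.34 at 24 h. With AP2a only it started at 1.81 and 1.86, reached 2.27 and 2.2 after 3 h, and was 2.21 and 2.16 after 24 h. With neither factor it was 0.74 and 0.71 at the start, 0.92 and 0.85 after 3 h, and 1.05 and 1.02 after 24 h. The replicates of 0 h and 3 h did not overlap in any of these classes: the first went down and the others up. In WT the median distal level with both factors stayed between 3.92 and 3.97 in all 6 libraries. With AP2a only it was 1.72 and 1.76 at 0 h and 1.74 and 1.80 at 3 h there. With neither factor it rose in WT too, from 0.67 and 0.69 at 0 h to 0.79 and 0.85 at 3 h, without overlap. The rise of that median at 3 h was therefore not particular to TWIST1FV. The median log2 fold change of these elements at 3 h was 0.02 in WT and 0.18 in TWIST1FV.

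By edgeR's quasi-likelihood test over 123361 elements, with Benjamini-Hochberg adjustment and a false discovery rate of 0.05, 4.28% of elements fell and 1.01% rose after 3 h, and 9.49% fell and 4.28% rose after 24 h. Of 5232 tested distal elements with both factors, 924 fell and 101 rose at 3 h, and 1714 fell and 259 rose at 24 h. Their median log2 fold changes were -0.30 and -0.45. Of 1753 distal elements with AP2a only, 5 fell and 84 rose at 3 h and 23 fell and 203 rose at 24 h, with medians of 0.38 and 0.36. Of 58819 distal elements with neither factor, 220 fell and 688 rose at 3 h and 640 fell and 3603 rose at 24 h, with medians of 0.18 and 0.31. For 28833 distal elements with TWIST1 only the counts were 3718 and 121 at 3 h and 8110 and 489 at 24 h, with medians of -0.64 and -0.88. Promoter elements moved less: with both factors 116 of 5330 fell and 38 rose at 3 h.

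In WT no element passed the test (0% down and 0% up at each time, over 120860 elements). At an unadjusted p under 0.05 there were 4138 elements at 3 h (3.42%) and 4323 at 24 h (3.58%), and DESeq2 called 0. How an element is classed matters for AP2a only: with the element's centre within 250 bp of a summit required in place of an overlap, 116 elements with AP2a only rose and 120 fell at 3 h over promoter and distal elements together, against 154 and 9. Without replicate 1 of 0 h, 617 elements with both factors passed at 3 h in place of 1179. The rises with AP2a only rest on the 0 h libraries as well: 63 were called at 3 h without replicate 1 and 68 without replicate 2 of 0 h. At 24 h, 332 were called with all libraries, 152 and 210 without those, and 215 without replicate 2 of 24 h.

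**Figure D5:**
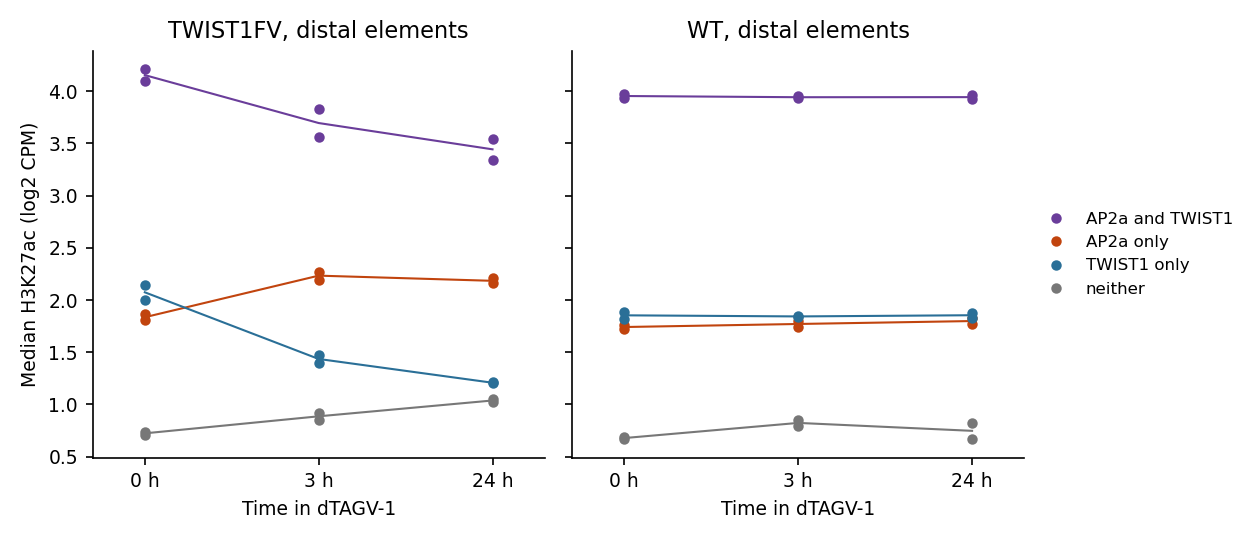
Median H3K27ac (log2 CPM, vertical axis) of distal elements by the factors that overlap them, at each time in dTAGV-1, in TWIST1FV (left) and WT (right). Points are libraries and lines join the means of the 2 replicates. In TWIST1FV elements with both factors go down from 4.21 and 4.10 while those with AP2a only go up from 1.81 and 1.86.

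Beside elements with TWIST1 only, those with AP2a as well had less negative median changes of H3K27ac in each quartile of TWIST1 enrichment. In the strongest quartile the median log2 fold change at 3 h was -0.70 for 2417 distal elements with both factors and -1.10 for 6100 with TWIST1 only, at median TWIST1 enrichments of 54.0 and 43.1-fold. In the weakest quartile the medians were 0.29 and -0.22. At 24 h they were -0.999 and -1.60 in the strongest quartile and 0.22 and -0.29 in the weakest. Elements with both factors had more H3K27ac to begin with. The same order was found in each of 5 bands of the level averaged over all 6 libraries, from 1 log2 CPM up. Above 5 log2 CPM the 3 h medians were -0.15 and -0.35, and between 2 and 3 log2 CPM they were -0.46 and -0.70. Such bands include the levels after treatment, so they do not match the elements on their level at 0 h. These are descriptions of elements in the same 6 libraries, with no test between the classes.

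The elements with both factors that fell furthest were distal. A distal element 46988 bp upstream of PLEKHG7 (chr12:92655604-92656105) had 53.1 and 39.6 CPM at 0 h and 1.70 and 0.812 CPM at 24 h, with no overlap between the times. Its log2 fold change was -5.17 ± 0.35 (SE, edgeR adjusted p = 1.03e-07). The element 140879 bp upstream of ELAC2 (chr17:13158693-13159194) fell from 46.2 and 39.4 CPM to 4.11 and 4.45 at 3 h and to 1.46 and 1.08 at 24 h. One in DSCAM, a cell adhesion gene (chr21:40340318-40341232), went from 53.6 and 52.5 CPM at 0 h to 5.28 and 6.39 CPM at 3 h, and one 8349 bp from the start of COL28A1 from 12.2 and 10.2 to 0.586 and 1.39 CPM. At 24 h an element 118175 bp upstream of ECI2 had dropped from 74.3 and 66.7 to 2.67 and 2.16 CPM.

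The elements with both factors that rose furthest were lower at the start, an order that picking by the size of the log2 fold change favours in itself. The element nearest to UACA (chr15:70433027-70434749), 227807 bp from its start, had 1.84 and 2.75 CPM at 0 h, 12.0 and 6.39 at 3 h and 34.1 and 10.8 at 24 h. A promoter element 117125 bp upstream of FZD10, which encodes a WNT receptor, rose from 9.80 and 7.25 to 32.5 and 23.9 CPM at 3 h, while the element near KLF7 went from 3.37 and 1.75 to 8.21 and 8.34. At 24 h the elements nearest to SLC25A48 (0.612 and 0.500 to 2.67 and 4.87 CPM) and VRK1 (2.91 and 2.00 to 9.95 and 22.1 CPM) were the next in size. They lay 12135 bp from the SLC25A48 start and 1047038 bp from the VRK1 start. All of them were called by edgeR in TWIST1FV. In WT, the element near SLC25A48 was too low to be tested and the others were not called, though the FZD10 element had a log2 fold change of 0.99 at 3 h there, against 1.73 in TWIST1FV.

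A few elements that overlapped AP2a and no TWIST1 peak fell as well. Over promoter and distal elements together, 9 of 7831 fell at 3 h (0.115%) and 52 at 24 h (0.664%). Of all tested elements 4.28% and 9.49% fell. An element at the start of BNC1, which encodes a zinc finger protein of epithelia, did not overlap TWIST1, although a TWIST1 peak lay within 1 kb of that start. H3K27ac there was 31.2 and 22.99 CPM at 0 h, 7.77 and 7.92 at 3 h and 0.485 and 0.541 at 24 h. At CRABP1, a retinoic acid binding protein, it was 23.4 and 23.4 CPM at 0 h and 3.88 and 1.62 at 24 h, and 48291 bp upstream of ZBTB40 28.5 and 16.5 against 2.43 and 2.16 CPM. At 3 h the elements nearest to SGO1 and CST7 had fallen, from 5.21 and 5.87 to 1.91 and 0.834 CPM and from 8.88 and 9.74 to 2.35 and 3.06 CPM. In the other direction, the start of CRMP1 went from 0.306 and 0.999 to 3.23 and 4.58 CPM, that of GADL1 from 1.99 and 0.999 to 7.62 and 6.11, and a promoter element nearest to TPRA1 from 4.59 and 2.75 to 21.4 and 13.3 at 3 h. At 24 h elements nearest to HS6ST1 had risen from 5.51 and 4.75 to 32.5 and 52.1 CPM, MCTP2 from 1.84 and 1.75 to 16.7 and 16.5, and LYZL2 from 1.84 and 2.00 to 12.1 and 23.4. In WT the CRMP1 element was too low to be tested and the others were not called. The 24 h log2 fold changes in WT were 0.34, 1.33 and 0.64 for HS6ST1, MCTP2 and LYZL2, against 3.04, 3.20 and 3.19 in TWIST1FV.

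Near the listed genes, the distal elements with both factors fell in part. Of 95 such elements nearest to neural crest specification factors 9 fell and 1 rose at 3 h, and 27 fell and 7 rose at 24 h. Of 88 nearest to the signalling genes 13 fell and 1 rose at 3 h, and 31 fell and 4 rose at 24 h. Of 37 nearest to factors of the facial mesenchyme 3 fell and 0 rose at 3 h, and 6 fell and 3 rose at 24 h. Of 35 nearest to the transition and adhesion genes 9 fell and 1 rose at 3 h, and 11 fell and 4 rose at 24 h. Of 26 nearest to collagen and matrix genes 5 fell and 0 rose at 3 h, and 9 fell and 1 rose at 24 h. These shares stand beside 17.7% of all tested distal elements with both factors that fell at 3 h and 32.8% at 24 h.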

How the data were processed

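Peak lists and count tables were taken as deposited. Per the labels, reads were aligned to hg38, with mm39 added for libraries that hold mouse spike-in chromatin. The submitters' processing notes name Bowtie2 2.4.1, SAMtools 1.10, MACS2 2.2.7.1 and deepTools 3.5.0. Peaks were called by the authors for each library alone, and the sources used here name neither the control nor the threshold. In the deposited lists column 7 is a fold enrichment (a ratio), columns 8 and 9 are −log10 p and q values and column 5 is a score, which was not used. Lists were kept on chromosomes 1 to 22, X and Y with 1 summit an interval, that of the highest −log10 p. An overlap is at least 1 bp. Starts are those of all GENCODE 44 transcripts, and nearest genes are protein-coding.

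The H3K27ac tables hold raw counts per ATAC-seq element, deposited by the authors, of which 90.3 to 92.3% are even in each library, and totals ran from 7080398 to 9173063. They were tested with edgeR 4.0.16 (TMM, filterByExpr, quasi-likelihood, time as the only term, all 6 libraries of a line together), with DESeq2 1.42.0 as an alternative, in R 4.3.3; the fit was checked on simulated data. The mouse spike-in was not used, so a change in total H3K27ac would not be seen.

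The AP2a sites, gene lists and tests were chosen with earlier results of these data known. Deciles and quartiles are of enrichment within a list. Named sites are the 5 of highest enrichment by class and place, with at most 1 a gene; named genes are the 10 with the most distal sites by class and members of the lists; named elements are the 3 largest called changes by class, time and direction that were above the median level and moved alike in both replicates. The lists are TFAP2 family, neural crest specification, facial mesenchyme, transition and adhesion, collagens and matrix, melanocyte and Schwann cell, epithelial, neuronal, signalling and ribosomal protein genes, and 4 marker lists. Shares have 95% Wilson intervals. Alternatives were the promoter window, start sites, peak threshold, list, overlap rule, motif window, and for H3K27ac the normalization, tool, filter, replicate block, class rule and each library left out.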

Additional observations from a re-analysis of the deposited data

How the results depend on the processing

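Of 61 alternative values 23 were within the interval of the reported value or within 1.5 times a reported count. The AP2a promoter share stood above that of TWIST1 by 41.0 percentage points, by 38 with a promoter window of 500 bp, 39.1 with protein-coding starts only, 43.8 with a −log10 q of at least 5, 50.8 with the 10000 strongest peaks of each list, 36.7 with the Novus Bio list alone and 34.1 with the Cell Signaling list alone. In the same order of settings where they apply, the share of AP2a sites with TWIST1 (54.5%) was 49.3%, 22.9%, 50.6% and 48.8%, the share of TWIST1 peaks with AP2a (16.8%) was 13.4%, 18.75%, 19.0% and 20.8%, and the ratio of AP2a enrichment with over without TWIST1 (1.26) was 1.16, 1.04, 1.33 and 1.38. With a reciprocal overlap of 50% the shares were 28.9% and 8.70%, and the ratio 1.22. With summits within 100 bp the shares were 25.9% and 7.79%, and the ratio 1.21. The median summit distance is given here over promoter and distal shared sites together, where the reported lists gave 109 bp. It was 81 bp with the reciprocal overlap, 98 bp with the q threshold and 78 bp with the strongest peaks. With the WT 0 h lists of TWIST1 the share of AP2a sites was 55.5% and 51.0%, the share of TWIST1 peaks was 18.4% with replicate 2, and the distance was 116 bp with replicate 1. The difference in AP2 motif share (37.6 percentage points) was 24.9 in windows of 50 bp, 41.4 with the q threshold and 43.3 with the strongest peaks. Fewer and stronger peaks enter these threshold settings; other causes were not tested.

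Of elements with both factors, 1179 were called at 3 h and 2436 at 24 h; with the element's centre within 250 bp of a summit, which classes fewer elements, 722 and 1476 were called. Leaving out 1 library gave 617 to 1251 at 3 h and 1728 to 2200 at 24 h. With the replicate block 2490 and 3603 were called, among them all 1179 and 2436. The labels give no shared batch for a replicate number, and the correlation of deviations between same-numbered TWIST1FV libraries was 0.264 for 0 and 3 h and 0.218 for 0 and 24 h. Elements with AP2a only that rose numbered 154 at 3 h and 332 at 24 h, 539 and 727 with the block, and 205 and 473 with library size alone. Scaling by library size alone moved the median log2 fold change of all tested elements from 0.02 to 0.11 at 3 h and from 0.03 to 0.16 at 24 h, and the medians of distal elements with both factors and with AP2a only kept their signs.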
